A study of Mus musculus with 6 samples.

Results

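The genes of the IKK kinases, of the kinases NIK and TPL2 and of the linear ubiquitin ligase LUBAC were examined in type-2 innate lymphoid cells (ILC2s) cultured with or without an agonist of GITR. They are 10 of the 53278 genes in the deposited count table, taken by name: Map3k14, Chuk, Ikbkb, Ikbkg, Tbk1, Ikbke, Rbck1, Rnf31, Sharpin and Map3k8. ILC2s were sorted from the visceral adipose tissue of C57BL/6 mice aged 8 weeks, after 3 intraperitoneal injections of 1 µg IL-33 per mouse. All cells were cultured in IL-2 and IL-7 (10 ng/mL each), with DTA-1, an agonistic antibody to GITR, at 5 µg/mL in 1 group and an isotype control antibody in the other. The control libraries are titled isotype, but their sample descriptions read PBS-GITR. They are called isotype control here, after the titles and the study's methods. Each group had 3 libraries made from 10 ng of RNA, and the labels give 48 h of culture where the study's results text gives a shorter time. Cells were gated by the absence of lineage markers and by CD45, ST2 and CD117, and nothing in the labels or methods says how many animals went into a library, so that p-values measure only the spread between these libraries.

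GITR is a receptor of the TNF receptor family that signals to NF-κB through TRAF adaptors. In the canonical branch, ubiquitin chains built at the receptor recruit the IKK complex, made of the kinases IKKα (Chuk) and IKKβ (Ikbkb) and the scaffold NEMO (Ikbkg), which marks IκB proteins for destruction. LUBAC, made of HOIL-1 (Rbck1), HOIP (Rnf31) and SHARPIN (Sharpin), builds linear ubiquitin chains that NEMO binds. In the alternative branch, NIK (Map3k14) is destroyed continuously by a TRAF-IAP complex until a receptor is engaged, and then activates IKKα, which leads to the processing of p100 (Nfkb2). TBK1 (Tbk1) and IKKε (Ikbke) are IKK-related kinases best known from innate sensing, and TPL2 (Map3k8) is held by the NF-κB precursor p105 and activates the ERK pathway once released by IKK. Most of the control of these proteins is exerted on the protein itself, by phosphorylation, ubiquitination and degradation, which RNA-seq does not measure.

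The 6 libraries held 30569351 to 35131329 counts each, and 14361 genes passed the filter on low counts, among them all 10 genes. The ILC2 markers were present in every library, with Gata3 at 1700 ± 15.8 normalized counts (CPM, counts scaled by TMM to a common library size) in isotype control and 1600 ± 76.9 in DTA-1, and the GITR gene Tnfrsf18 at 717 ± 45.1 and 708 ± 49.4 (SD, n = 3 each). Of the marker lists reported here, those of other cells summed to at most 53.3 CPM for T cells, 24.4 for endothelial cells, 7.6 for fibroblasts and 4.28 for macrophages in any library, and below 1 CPM for neutrophils, adipocytes and mesothelial cells, with Cd8a, C1qb, S100a8, S100a9, Cdh5, Lep, Msln and Upk3b at 0 throughout. The fibroblast list summed to 1.8 to 7.6 CPM in isotype control and to 0, 0.288 and 3.98 CPM in DTA-1 replicates 1, 2 and 3. The endothelial list summed to 18.4 to 24.4 CPM in isotype control and to 18.3, 10.6 and 10.8 CPM in DTA-1 replicates 1, 2 and 3. Of its 3 genes, 2 were below 1 CPM in every library, so the sum rests on the remaining gene. The part of the fibroblast and endothelial lists in the results was not tested. The library labelled DTA-1 replicate 1 stood apart from its group. By the chi-square of counts per degree of freedom it lay 9.64 to 11.3 from the isotype control libraries whereas its distances to DTA-1 replicates 2 and 3 were 27.1 and 28.2. Those 2 libraries were 11.4 apart. Whether its label or its treatment differs from theirs was not tested and bears on every DTA-1 value below. For the 10 genes and for many pathway genes, values without this library are therefore given beside those of all 6. It was picked from these same counts, which favours small p-values without it, so those p-values and calls are descriptions.

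None of the 10 genes passed the test for a change with DTA-1. The log2 fold change was above 0 for 6 genes and below 0 for 4 (51.9% of all genes tested were below 0), Rnf31 turning from above to below 0 when libraries were scaled by total counts, and the values ran from -0.07 for Map3k8 to 0.28 for Map3k14, with a median of 0.03 against -0.01 over all genes tested. By edgeR's quasi-likelihood test 0 of the 10 genes were differentially expressed (adjusted p under 0.05 and at least 1.5-fold), with a smallest adjusted p of 0.738, against 0% of all 14361 genes. At an unadjusted p under 0.05 there were also 0 of the 10, against 7.22% of all genes, and DESeq2's Wald test called 0 of the 10, against 0.152%. In all 10 genes the DTA-1 libraries overlapped the isotype control libraries. Over all genes, 11.3% had groups that did not overlap (5.26% with DTA-1 higher and 6.03% with DTA-1 lower). With only 10 genes, 0 cannot be told apart from that share. At an unadjusted p under 0.05 with a change of 1.5-fold there were 0 of the 10 against 2.35% of all genes. In cells sorted as one population, less RNA per cell and fewer cells with the RNA cannot be told apart.

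**Figure D1:**
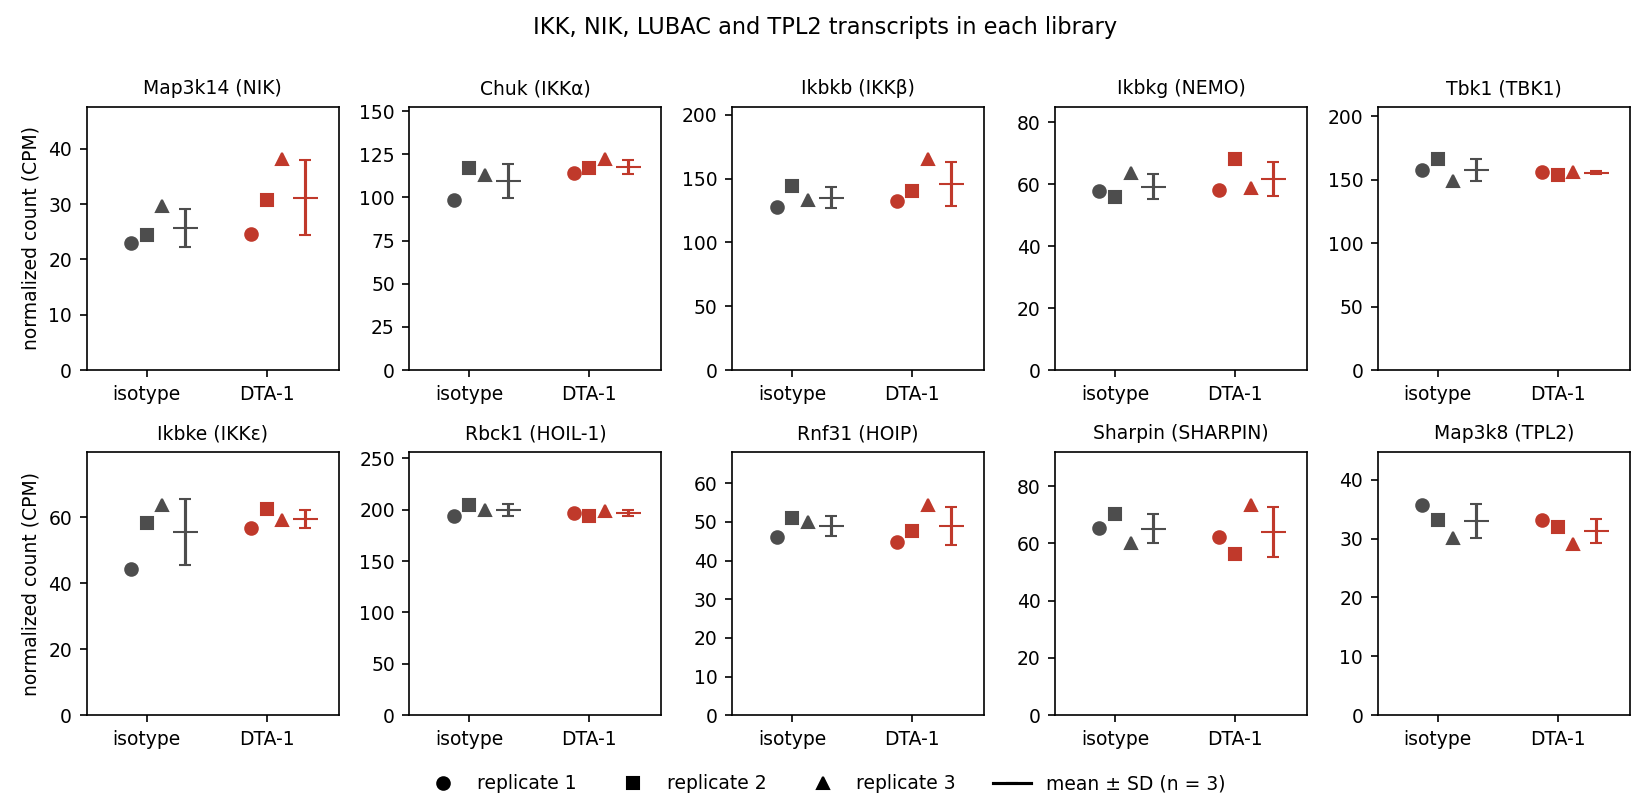
Normalized counts (CPM, axes from 0) of the 10 genes in each library, with 1 point per library, marker shape for the replicate number, and the mean ± SD of 3 libraries beside the points. In every panel the DTA-1 points overlap the isotype control points, and the largest ratio of means is that of Map3k14, at 25.7 and 31.2 CPM.

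Map3k14 encodes NIK and lies on chromosome 11 (103219762 to 103267472, minus strand, GRCm38). It had 22.9, 24.5 and 29.6 CPM in isotype control replicates 1, 2 and 3 and 24.6, 30.8 and 38.1 CPM in DTA-1 replicates 1, 2 and 3. DTA-1 replicates 2 and 3 lay above every isotype control library, and the library labelled DTA-1 replicate 1 lay among them. With that library set aside the groups did not overlap, as was then so for 15.3% of all genes with DTA-1 higher and 31.3% in either direction. The log2 fold change was 0.28 ± 0.16 (SE, with a 95% interval from -0.07 to 0.63 and adjusted p = 0.738 by edgeR), so that a rise of 1.5-fold (0.585 on the log2 scale) lies inside the interval. With the library labelled DTA-1 replicate 1 set aside it was 0.43 (interval 0.10 to 0.75, unadjusted p = 0.0148, edgeR adjusted p = 0.216), where 14% of all 14911 genes then tested had an unadjusted p under 0.05. Without DTA-1 replicate 3, which holds the highest value, it was 0.11. Over the alternative analyses the adjusted p of Map3k14 ranged from 0.216 to 0.999. A non-coding gene on the same strand, 1700028N14Rik, shares 135 of its 6550 exon bases (2.06%) and had a mean of 12 counts against 942.

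In the IKK complex, the kinase genes Chuk and Ikbkb had log2 fold changes of 0.10 and 0.11. Chuk (chromosome 19, 44073335 to 44107480, minus strand), the gene of IKKα, the substrate of NIK, had 98.2, 117 and 113 CPM in isotype control and 114, 117 and 122 CPM in DTA-1. Isotype control replicate 1 was the lowest of the 6, and the other libraries lay close together. For Chuk the log2 fold change was 0.10 ± 0.08 (SE, with a 95% interval from -0.07 to 0.28 and adjusted p = 0.805 by edgeR), and 0.04 without isotype control replicate 1. With any 1 library left out it ran from 0.04 to 0.16, and it was 0.13 with the library labelled DTA-1 replicate 1 set aside. Ikbkb (chromosome 8, 22659212 to 22706589, minus strand), the gene of IKKβ, the main IκB kinase, had 128, 144 and 133 CPM in isotype control and 132, 140 and 165 CPM in DTA-1. DTA-1 replicate 3 was the highest library and the other DTA-1 libraries lay within the isotype control range. Its log2 fold change was 0.11 ± 0.09 (SE, with a 95% interval from -0.09 to 0.30 and adjusted p = 0.831 by edgeR), and 0.01 without DTA-1 replicate 3.

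Ikbkg encodes NEMO, the scaffold that carries the ubiquitin-binding site of the complex (chromosome X, 74393290 to 74453854, plus strand). It had 57.8, 55.9 and 63.7 CPM in isotype control and 58.2, 68.0 and 58.9 CPM in DTA-1, with DTA-1 replicate 2 the highest and the others mixed. For Ikbkg the log2 fold change was 0.06 ± 0.09 (SE, with a 95% interval from -0.14 to 0.27 and adjusted p = 0.921 by edgeR), and 0.10 with the library labelled DTA-1 replicate 1 set aside. These values are uncertain. Ikbkg lies opposite G6pdx, shares 418 of its 8110 exon bases (5.15%) with it, and G6pdx had a mean of 15723 counts against 2009 for Ikbkg, while the strand setting of the counting is not given in the sources used here. In 5 of 6 libraries the deposited count of Ikbkg was more than 0.05 from a whole number, as it was for Rbck1 and Rnf31.

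Among the IKK-related kinases, Tbk1 varied little between libraries and Ikbke more. Tbk1 (chromosome 10, 121546455 to 121586787, minus strand) had 158, 166 and 149 CPM in isotype control and 156, 154 and 156 CPM in DTA-1. All 3 DTA-1 libraries lay inside the isotype control range, and the log2 fold change was -0.02 ± 0.06 (SE, with a 95% interval from -0.16 to 0.12 and adjusted p = 0.963 by edgeR). It was also -0.02 with the library labelled DTA-1 replicate 1 set aside. Ikbke (chromosome 1, 131254343 to 131279606, minus strand), which is inducible in many immune cells, had 44.4, 58.3 and 63.9 CPM in isotype control and 56.8, 62.5 and 59.2 CPM in DTA-1. The widest gap was thus between isotype control libraries, with a coefficient of variation of 18% there, the largest of the 10 genes. For Ikbke the log2 fold change was 0.10 ± 0.12 (SE, with a 95% interval from -0.17 to 0.37 and adjusted p = 0.897 by edgeR), and it turned to -0.03 without isotype control replicate 1, the low library. It was 0.13 with the library labelled DTA-1 replicate 1 set aside.

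All 3 LUBAC genes had log2 fold changes close to 0. Rbck1 (chromosome 2, 152316334 to 152332653, minus strand), the gene of HOIL-1, had 194, 205 and 200 CPM in isotype control and 197, 194 and 199 CPM in DTA-1, so that the highest library exceeded the lowest by a factor of 1.06. Its log2 fold change was -0.02 ± 0.06 (SE, with a 95% interval from -0.15 to 0.11 and adjusted p = 0.960 by edgeR). Rnf31 (chromosome 14, 55591708 to 55603693, plus strand), the gene of HOIP, the catalytic subunit, had 46.0, 51.0 and 50 CPM in isotype control and 44.9, 47.6 and 54.5 CPM in DTA-1. Both the lowest and the highest library were DTA-1 libraries, the means of the groups were 49.0 CPM each, and the interval of the log2 fold change ran from -0.21 to 0.22 (adjusted p = 0.999 by edgeR). Rnf31 shares 123 of its 5734 exon bases (2.15%) with Irf9 on the same strand, which had a mean of 1349 counts against 1632, so reads at its end could belong to either gene. Sharpin (chromosome 15, 76347040 to 76351111, minus strand), whose product stabilizes the complex, had 65.3, 70.3 and 60.0 CPM in isotype control and 62.1, 56.4 and 73.6 CPM in DTA-1. Here too the DTA-1 libraries were spread on both sides of the isotype control libraries, and the log2 fold change was -0.03 ± 0.11 (SE, with a 95% interval from -0.26 to 0.21 and adjusted p = 0.972 by edgeR).

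Map3k8 encodes TPL2 and lies on chromosome 18 (4331327 to 4353015, minus strand). It had 35.8, 33.1 and 30.1 CPM in isotype control and 33.1, 31.9 and 29.1 CPM in DTA-1, with DTA-1 replicate 3 the lowest and isotype control replicate 1 the highest library. The log2 fold change was -0.07 ± 0.11 (SE, with a 95% interval from -0.31 to 0.16 and adjusted p = 0.919 by edgeR), and -0.11 with the library labelled DTA-1 replicate 1 set aside.

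The intervals set limits on the changes that these libraries could hold. For 9 of the 10 genes the whole 95% interval lay within a change of 1.5-fold in either direction, Map3k14 being the exception, both with all 6 libraries and with the library labelled DTA-1 replicate 1 set aside. This is close to the share among genes of like abundance: 58.9% of all tested genes, and 92.3% of the 8723 with a mean of at least 10 CPM, had such an interval. With the library labelled DTA-1 replicate 1 set aside, 52.7% of all genes had one, and 7602 of the 8723. The median size of the log2 fold change, without its sign, was 0.07 for the 10 genes, 0.12 for all genes tested and 0.08 for those with at least 10 CPM. The coefficient of variation among isotype control libraries had a median of 7.37% for the 10 genes and 7.05% for the 8723 genes.

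**Figure D2:**
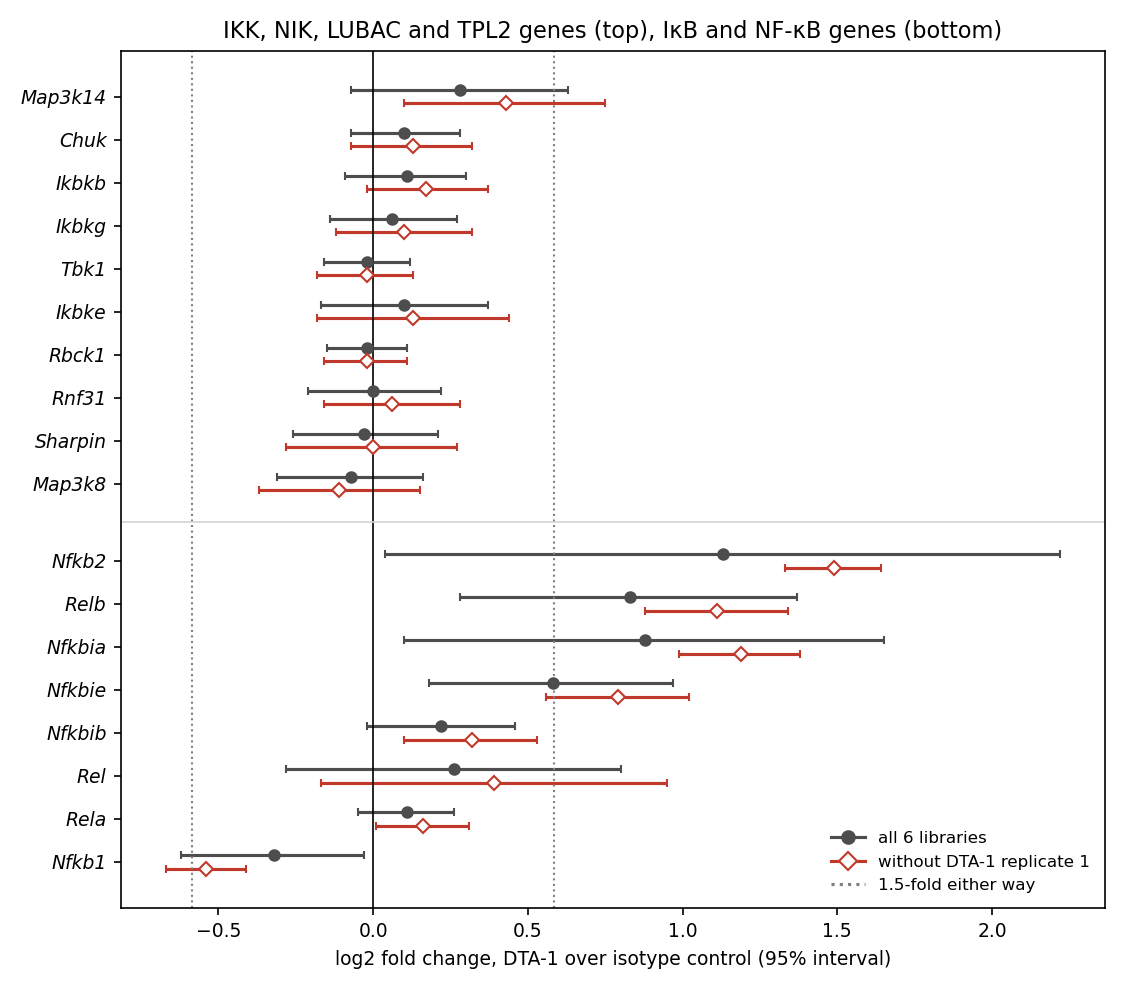
Log2 fold change of DTA-1 over isotype control with its 95% interval for the 10 genes and for 8 IκB and NF-κB genes, with all 6 libraries (filled) and with the library labelled DTA-1 replicate 1 set aside (open). Dotted lines mark 1.5-fold, which only the intervals of Map3k14 cross among the 10 upper genes, while the log2 fold change of Nfkb2 is 1.13 with all libraries and 1.49 without that library.

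Levels were expressed per kb of the longest annotated transcript (GENCODE M21), which makes genes comparable only where that transcript is the one in use. In isotype control the levels of the 10 genes spanned 6.05 to 83.6 CPM per kb. Rbck1 was first at 83.6 ± 2.26 (SD, n = 3) and Tbk1 next at 52.2 ± 2.78, and all 6 libraries of each stood clear of the gene after it. Sharpin (34.2 ± 2.68), Chuk (31.2 ± 2.82) and Ikbkb (27.9 ± 1.62) followed, and neighbours among these overlapped. Map3k8 (12.8 ± 1.10), the sixth, stood clear on both sides. Rnf31 (9.92 ± 0.535), Ikbke (9.48 ± 1.71), Ikbkg (8.46 ± 0.584) and Map3k14 (6.05 ± 0.823) were lowest, each overlapping its neighbour. By this measure the kinase subunits Chuk and Ikbkb were at similar levels and the scaffold gene Ikbkg lower. Within LUBAC the catalytic gene Rnf31 was the lowest by it and Rbck1 the highest. The level of Ikbkg depends on its longest transcript of 6994 bases, the longest of the 10, and a shorter one in use would raise it.

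**Figure D3:**
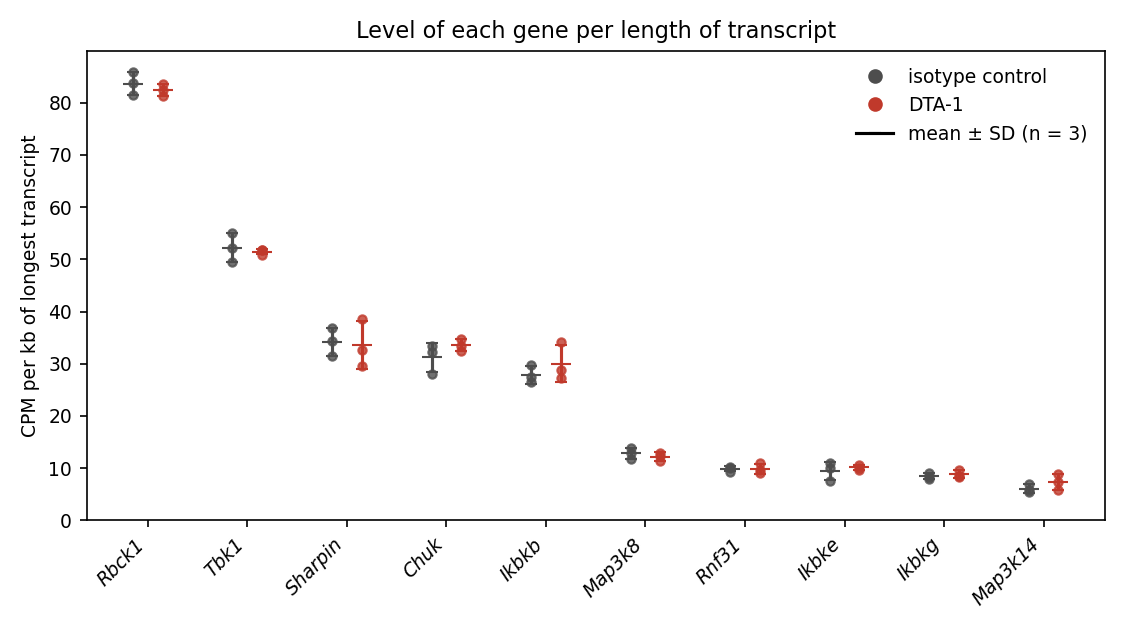
Level of each gene in CPM per kb of its longest annotated transcript (axis from 0), with 1 point per library and the mean ± SD of 3 libraries per group, ordered by the isotype control mean. Rbck1 leads at 83.6 CPM per kb and Map3k14 is last at 6.05, and the group means lie side by side for each gene.

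The genes whose profile over the 6 libraries was most like a gene of the set were looked up for Map3k14, Ikbke and Map3k8, which are inducible in other cells. Across 5907 genes of at least 5 in mean log2 CPM, the closest to Map3k14 were Nucb1 (Pearson r = 0.9942), Pygb (0.9926) and Mcm3 (0.9822). For Ikbke they were Arid2 (0.9987), Adam10 (0.9776) and Utp3 (0.9730), and for Map3k8 Ndufa11 (0.9911), Agpat2 (0.9886) and Ufc1 (0.9819). These are descriptions over 6 points that share depth and library preparation. None of these 9 genes had a log2 fold change above 0.11 or below -0.09, and no IκB or NF-κB gene was among them.

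The pathway lists, like the 10 genes, were chosen with earlier results of these data known, so any contrast between the sets is a description. Of 32 other genes of the pathway, 31 were tested, and they spread more widely. The log2 fold change was above 0 for 25 and below 0 for 6, with a median of 0.16 against -0.01 over all genes and 0.03 for the 10 genes above. With all 6 libraries 0 were differentially expressed by edgeR (smallest adjusted p = 0.627) and 0 by DESeq2's Wald test. At an unadjusted p under 0.05 by edgeR there were 12, against 7.22% of all genes. Of the 12, 11 were higher (590 of all 14361 genes were higher at that p) and 1 was lower (3.11% of all genes). With the library labelled DTA-1 replicate 1 set aside, a choice made from these counts, 7 of them met the limits for a call, all higher. These were Birc3, Nfkb2, Nfkbia, Nfkbie, Relb, Tnfaip3 and Tnip1, against 0.744% of all genes called. Of the 10 IKK, NIK, LUBAC and TPL2 genes 0 were called in that comparison, and 0 also with no limit on the fold, where 1.7% of all genes and 10 of the 31 pathway genes were called. The difference between the sets was not tested. With all 6 libraries the groups did not overlap in 3 of the 31 pathway genes, with DTA-1 higher in 2 (Optn and Tnip2) and lower in 1 (Tab1), against 11.3% of all genes, 5.26% higher and 6.03% lower, so that these 3 genes are described below as named by the rule and not as a result.

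The IκB and NF-κB genes encode the proteins that IKK acts on or releases. Among them, Nfkb2, whose product p100 is cut after NIK activates IKKα, had 115, 103 and 115 CPM in isotype control and 108, 307 and 315 CPM in DTA-1. Its log2 fold change was 1.13 ± 0.43 (SE, adjusted p = 0.678 by edgeR) over all libraries and 1.49 (adjusted p = 1.34e-05 by edgeR) on setting aside the library labelled DTA-1 replicate 1. In that library Nfkb2 was at the isotype control level, as was Map3k14, but in DTA-1 replicates 2 and 3 Map3k14 stood only 0.26 and 0.57 above the isotype control mean on the log2 scale, against 1.47 and 1.51 for Nfkb2. Relb, the gene of the partner that p100 holds back, had 43.5, 39.9 and 35.1 CPM in isotype control and 39.4, 85.1 and 85.5 CPM in DTA-1. Nfkbia, the gene of IκBα, had 102, 88.5 and 84.4 CPM in isotype control and 87.3, 214 and 202 CPM in DTA-1, and Nfkbie, the gene of IκBε, 32.8, 27.8 and 30 CPM and 30.6, 52.3 and 52.3 CPM. In each of these genes, and also in Nfkbib and Rela, DTA-1 replicates 2 and 3 were above all other libraries. In Nfkb1, whose product is p105, they were below all others, at 272 and 270 CPM against 380 to 409. With the library labelled DTA-1 replicate 1 set aside, 15.3% of all genes had DTA-1 higher without overlap, and 31.3% had no overlap in either direction. Nfkbib, the gene of IκBβ, had 82.1, 66.1 and 76.5 CPM in isotype control and 75.4, 95.7 and 90.8 CPM in DTA-1 (log2 fold change 0.22, adjusted p = 0.709 by edgeR). Rel, the gene of c-Rel, had 4.49, 3.85 and 3.85 CPM in isotype control and 3.95, 6.18 and 4.49 CPM in DTA-1 (log2 fold change 0.26, adjusted p = 0.853 by edgeR). Neither was called on setting aside the library labelled DTA-1 replicate 1 (adjusted p = 0.178 for Nfkbib and 0.544 for Rel by edgeR). Rela, the gene of p65, stood nearer to the 10 genes, at 186, 171 and 187 CPM in isotype control and 181, 201 and 204 CPM in DTA-1 (log2 fold change 0.11, adjusted p = 0.767 by edgeR).

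For each gene the level in a library was set against the isotype control mean. Across the 10 genes these differences ran from -0.21 to 0.26 in DTA-1 replicate 2 and from -0.18 to 0.57 in DTA-1 replicate 3, and in the isotype control libraries from -0.32 to 0.21. Across the 8 IκB and NF-κB genes they ran from -0.54 to 1.47 and from -0.55 to 1.51 in DTA-1 replicates 2 and 3, and from -0.18 to 0.15 in isotype control.

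**Figure D4:**
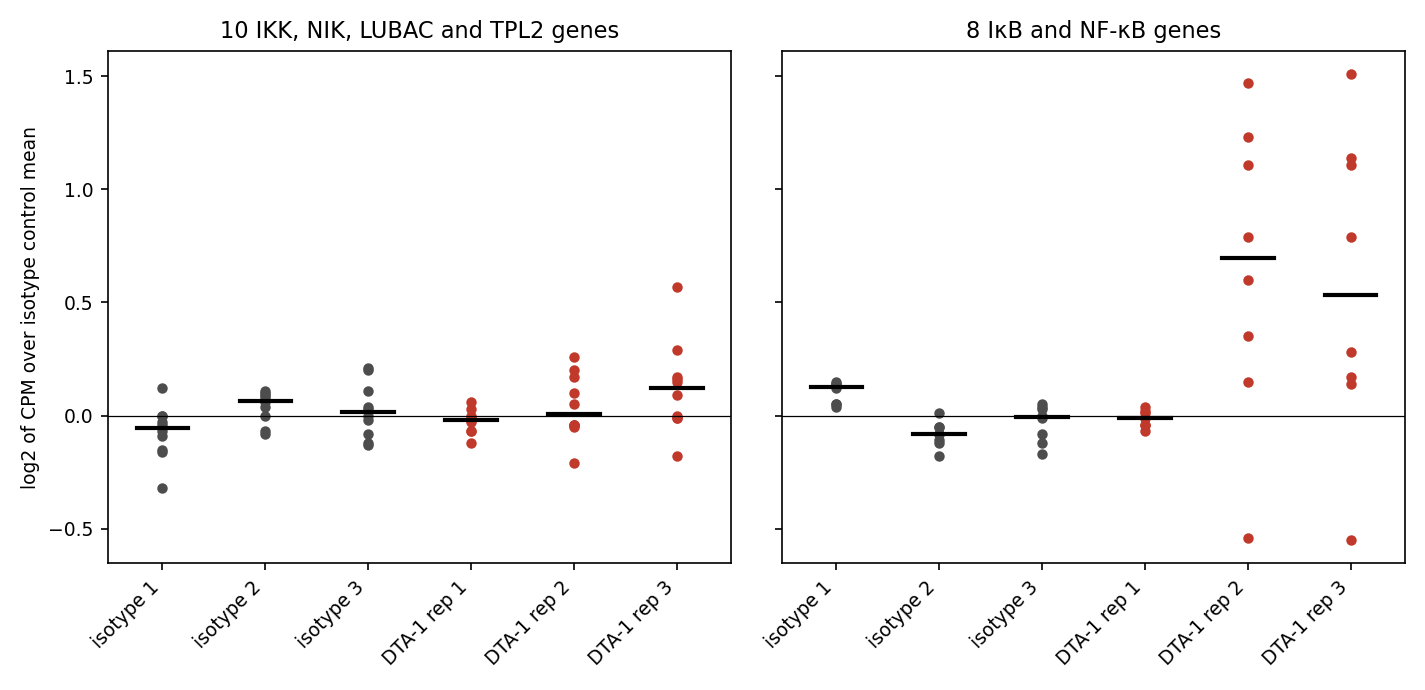
Log2 of each gene's CPM over its isotype control mean, by library, for the 10 genes (left) and 8 IκB and NF-κB genes (right), with 1 point per gene and a bar at the median. In DTA-1 replicate 2 the median is 0.01 on the left and 0.70 on the right, in DTA-1 replicate 3 it is 0.12 and 0.54, and in the library labelled DTA-1 replicate 1 it is -0.02 and -0.01.

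The genes of the complex that destroys NIK, which are named here beyond the naming rule with their values seen, had a median log2 fold change of 0.35. Of these 4 genes, Birc3, the gene of cIAP2, had 80.7, 80.1 and 86.2 CPM in isotype control and 82.1, 159 and 164 CPM in DTA-1, which gave 0.71 ± 0.22 on the log2 scale (SE, adjusted p = 0.627 by edgeR). On setting aside the library labelled DTA-1 replicate 1 it was 0.97 (adjusted p = 0.000115 by edgeR). Traf2 and Traf3 were then at 0.44 and 0.55 (adjusted p = 0.029 and 0.0154 by edgeR), short of 1.5-fold, and Birc2, the gene of cIAP1, was at 0.26 (adjusted p = 0.441 by edgeR). For Traf2, Traf3 and Birc3, as for Map3k14, DTA-1 replicates 2 and 3 lay above every isotype control library and the library labelled DTA-1 replicate 1 among them.

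Around LUBAC, the deubiquitinase genes Otulin and Cyld and the gene of the CYLD adaptor, Spata2, had log2 fold changes of -0.06, 0.00 and -0.07. Tnfaip3 and Tnip1, the genes of the ubiquitin-binding inhibitors A20 and ABIN-1, had log2 fold changes of 0.51 and 0.49 (adjusted p = 0.627 each by edgeR), and of 0.71 and 0.66 with the library labelled DTA-1 replicate 1 set aside (adjusted p = 0.00925 and 0.00564 by edgeR). Among the kinases and adaptors that act on the IKK complex from above, Map3k7, Tab2, Tab3 and Ripk1 had overlapping groups, and Tab1, a regulatory subunit of the TAK1 kinase, which is named for groups that do not overlap, did not pass the test (33.4, 33.6 and 30.1 CPM in isotype control, 24.3, 28.4 and 29.6 in DTA-1, log2 fold change -0.24, adjusted p = 0.698 by edgeR). The IKK chaperone genes Cdc37, Hsp90aa1 and Hsp90ab1 had log2 fold changes of -0.00, 0.13 and 0.14, each with an interval inside 1.5-fold.

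Of the adaptors of TBK1 and IKKε, 0 were called. Optn encodes optineurin, a ubiquitin receptor that TBK1 binds and phosphorylates, and it had 2.97, 2.71 and 2.18 CPM in isotype control and 4.59, 5.13 and 4.45 CPM in DTA-1. It was chosen because its groups do not overlap. The log2 fold change was 0.85 ± 0.24 (SE, with a 95% interval from 0.31 to 1.39 and adjusted p = 0.627 by edgeR), and 0.87 (adjusted p = 0.179 by edgeR) on setting aside the library labelled DTA-1 replicate 1. Tank and Azi2 had log2 fold changes of 0.23 and 0.03, and Tbkbp1 was removed by the filter, at no more than 0.085 CPM in any library. With the library labelled DTA-1 replicate 1 set aside, Tank and Azi2 were at 0.36 and 0.05 (adjusted p = 0.191 and 0.834 by edgeR).

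TPL2 is held inactive by p105, the product of Nfkb1, together with ABIN-2, the product of Tnip2. Nfkb1 had 409, 380 and 394 CPM in isotype control and 406, 272 and 270 CPM in DTA-1, which gave -0.32 ± 0.13 (SE, adjusted p = 0.657 by edgeR) over all libraries and -0.54 (adjusted p = 0.00162 by edgeR) on setting aside the library labelled DTA-1 replicate 1, short of 1.5-fold. Tnip2 had 32.4, 33.2 and 34.9 CPM in isotype control and 36.0, 37.3 and 41.5 CPM in DTA-1, with a log2 fold change of 0.19 ± 0.10 (SE, adjusted p = 0.725 by edgeR). Map3k8 itself overlapped between the groups. The genes of the kinases that TPL2 phosphorylates, Map2k1 and Map2k2, had log2 fold changes of 0.20 and 0.01 (adjusted p = 0.657 and 0.983 by edgeR).

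The promoters were read for the κB consensus, the motif of 10 bases that NF-κB dimers bind, which opens with a run of G and a purine, ends with a pair of pyrimidines and a run of C, and was sought on both strands. The windows were the 250 bases before each RefSeq start (GRCm38.p6). Of the 10 genes 7 had a window and 0 of these 7 held a match, against 4.46% of all 27025 genes with a window, and 11 of 27 pathway genes (40.7%). Among the 7 pathway genes called with the library labelled DTA-1 replicate 1 set aside, 6 had a window and 5 held a match. Of the 21 pathway genes with a window that were not called there, 6 (28.6%) held a match. A match is a run of letters and not a measured binding site, and no match means only that the letters are not in this window. The part of the Map3k14 window that lies before every annotated start is shown as the gene of the set with the largest log2 fold change (chr11:103267473-103267651, minus strand), in lower case since it holds no match.
Map3k14: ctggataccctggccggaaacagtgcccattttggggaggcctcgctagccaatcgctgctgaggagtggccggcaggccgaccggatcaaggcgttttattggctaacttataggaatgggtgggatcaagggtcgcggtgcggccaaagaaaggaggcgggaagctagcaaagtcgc

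For comparison, stretches of 30 bases around the matches of genes that were called are shown with the match in capitals, where overlapping matches run together. Those of Nfkb2 (chr19:46304689-46304718 and chr19:46304707-46304736, plus strand), Nfkbia (chr12:55492657-55492686, minus strand) and Tnip1 (chr11:54962978-54963007, minus strand) lie within 67 bases of the start, and that of Nfkbie (chr17:45555584-45555613, plus strand) within 116. Of the 2 stretches of Tnfaip3 (chr10:19015516-19015545 and chr10:19015411-19015440, minus strand), the upstream one lies within 135 bases of the RefSeq start, and both lie inside the gene as the count table places it. These genes were chosen for their calls, so their share of matches is a description.
Nfkb2, upstream match: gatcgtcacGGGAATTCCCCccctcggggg
Nfkb2, downstream match: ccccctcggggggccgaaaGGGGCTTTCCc
Nfkbia: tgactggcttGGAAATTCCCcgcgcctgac
Tnip1: tccatcatgGGGGAATTCCCCtcctgcctc
Nfkbie: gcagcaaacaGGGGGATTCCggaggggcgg
Tnfaip3, upstream match: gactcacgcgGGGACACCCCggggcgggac
Tnfaip3, downstream match: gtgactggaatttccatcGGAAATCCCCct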

How the data were processed

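RNA-seq of 3 isotype control and 3 DTA-1 libraries was used. The authors deposited expected counts (fractional read estimates, not normalized) made with the Partek software, and the submitters' processing notes list bcl2fastq 2.17.1.14, STAR 2.5.3a and mm10. The annotation release and strand setting are not given in the sources used here. Of 49721 symbols shared with GENCODE M21, 48283 had the same start, and printed ends are 1 base before those of the table. Expected counts were rounded and fitted over all genes in R 4.3.3 with edgeR 4.0.16 (filterByExpr, TMM, robust quasi-likelihood F test, no covariate), with Benjamini-Hochberg adjustment over the 14361 genes tested. Alternatives were DESeq2 1.42.0 (size factors, Wald test), total counts, limma 3.58.1 (prior count 2), omitting the filter, a stricter one of 10 counts in all libraries, a block for replicate numbers, leaving out single libraries, no fold limit and an unadjusted p. The fit was tested on simulated data in which no library departed from its group. That simulation therefore does not cover a library such as the one labelled DTA-1 replicate 1. With 3 libraries against 3 a permutation test cannot give a p below 0.1, so none was run.

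The 10 genes and the pathway lists were chosen with earlier results of these data known. Named pathway genes are those whose groups did not overlap, those called without 1 library, the IκB and NF-κB genes, and the other list genes named were added after their values were seen. Look-alike genes are the 3 of highest r. Promoter windows came from RefSeq, and Ikbkb, Sharpin and Map3k8 had none. A marker list is not reported here.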

Additional observations from a re-analysis of the deposited data

How the results depend on the processing

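None of the 10 genes was differentially expressed under any alternative run (0 genes with each, and 0 at the unadjusted p and 1.5-fold). At an unadjusted p under 0.05 the count was 0 with all 6 libraries, 1 with the replicate number as a block (Map3k14, at an adjusted p of 0.672 by edgeR) and 0 to 1 with 1 library left out, the 1 being Map3k14 without DTA-1 replicate 1. At that p the share of all genes was 7.22% with all 6 libraries and 14% without DTA-1 replicate 1. The share with the block was not counted, so the 1 there is a description. Deviations of same-numbered libraries from their group means had correlations of -0.007, -0.003 and 0.015 over genes. Those of differently numbered libraries ran from -0.014 to 0.016. Values this small cannot decide whether the numbers pair the libraries. The block called 1 gene of the whole table, Chil3, at a log2 fold change of 7.03. Over all genes the count of 0 became 25 with DESeq2's Wald test, 2 without the filter (Ctgf and Pdgfra), 337 at the unadjusted p and 1.5-fold, and 0 to 111 with 1 library left out. Without the filter Ctgf and Pdgfra had log2 fold changes of -8.79 and -8.08. Changes of this size, as for Chil3, can rest on few counts. For the pathway genes the count became 5 at the unadjusted p and 1.5-fold, against 2.35% of all genes. With 1 library left out it was 0 to 7, the 7 without DTA-1 replicate 1, against 0.744% of all genes.

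Log2 fold changes of Map3k14, Chuk, Ikbkb, Rbck1 and Map3k8 kept their direction under all 13 alternatives. That of Rnf31, which is 0.00, turned to -0.0371 with total counts, -0.0028 with limma, -0.0008 without the filter, -0.0002 with the stricter filter and -0.0025 with the block. With 1 library left out, Rnf31 ran from -0.0820 to 0.0590, Ikbkg from -0.0088 to 0.1174, Tbk1 from -0.0591 to 0.0182, Ikbke from -0.0339 to 0.2118 and Sharpin from -0.1375 to 0.0635. Total counts moved the median of all genes by -0.037. At this depth a count of 0 allows 0.0854 to 0.0981 CPM (3 counts, counting error only), and the 10 genes were far above it.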
